A study of Mus musculus with 2 samples.

Results

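The enzymes of fatty acid oxidation were read on a pair of arrays that compare untreated bone marrow-derived macrophages (BMDMs) with BMDMs given interleukin-4 (IL-4) for 18 h. The group holds 37 genes, taken as a pathway with earlier results of these data known. They are acyl-CoA synthetases, the carnitine shuttle, acyl-CoA dehydrogenases, electron transfer flavoproteins, the enzymes of the mitochondrial and peroxisomal spirals and their auxiliary enzymes. All 37 were measured on both arrays, out of 20656 genes with a named probe, of which 12744 were well above background on both arrays and 14073 on at least 1 of them. BMDMs are macrophages grown from bone marrow precursors, and IL-4 is a T helper type 2 cytokine that turns them toward the alternatively activated, or M2, state. Both samples are labelled as macrophages of male mice, and the study's methods give the source as 8-week-old Crif1 f/f mice. Crif1 encodes a mitochondrial protein needed to make the subunits of oxidative phosphorylation (OxPhos), and these mice carry it floxed. The untreated and the treated cells therefore share that allele, and no Cre driver is named for the arrays. The concentration of IL-4 used for the arrays and the number of mice behind each RNA are not given in the sources used here. Each condition is 1 single-colour array, so no difference below has a replicate check or a p-value.

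Fatty acid oxidation breaks fatty acids down to acetyl-CoA. Synthetases join the fatty acid to coenzyme A, the carnitine shuttle carries the long-chain acyl group into the mitochondrion, and a repeated spiral of dehydrogenation, hydration, a further dehydrogenation and thiolysis then shortens the chain, passing electrons to the respiratory chain. Peroxisomes run a related spiral on very long and branched chains. Macrophages activated with IL-4 are known for their oxidative metabolism and their use of fatty acids, which contrasts with the glycolysis of classically activated cells, and the transcription factors PPARγ and STAT6 act in that program.

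The values are intensities with the background subtracted by the scanner software, in arbitrary units. Differences are given as log2 of the IL-4 intensity minus log2 of the untreated intensity, after the 75th percentile of each array (9.84 untreated and 9.94 IL-4 on the log2 scale) was subtracted. Each gene was read from its brightest probe, and the brightness of different probes is not compared, since it depends on the probe. A probe counts as well above background, or detected, when the software flagged it so. The spot error was taken from probes printed in 10 spots at a similar signal, as the median of their SD between spots on the log2 scale. It ran from 0.048 to 0.21 for the 37 enzymes, with a median of 0.055. The error that the software itself estimates came to 0.20 on the log2 difference at the median of the enzymes and to 0.32 at most. Neither error covers the spread between cultures. Of all gene spots, 59.8% untreated and 57.4% with IL-4 were well above background, and no spot of these enzymes was saturated or flagged as an outlier.

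The labels were checked against marker genes. The IL-4 response genes Arg1, Chil3 and Mrc1 were 216-fold, 14.2-fold and 5.33-fold higher on the IL-4 array. Retnla, not well above background without IL-4, was at least 595-fold higher. Its log2 difference went from 9.22 to 7.51 with normexp background correction, short of that bound. All 7 macrophage markers matched to a probe were well above background on both arrays. Adgre1 and Csf1r had log2 differences of 0.17 and 0.090, with 0.05 and -0.11 at the other Csf1r probes. Itgam and Lyz2 were both 1.63-fold lower with IL-4, and the other Itgam probes read -0.27 and -0.24. Mertk, Fcgr1 and Cd14 were 2.20-fold, 2.34-fold and 2.68-fold lower. Thus 5 of the 7 were at least 1.5-fold lower, beside 8.95% of the genes detected on 1 or both arrays, and the median of the 7 was -0.71. Of 25 markers of other cell types, 16 were detected on both arrays, 1 without IL-4 only and 8 on neither. Before scaling, the summed intensity of the 6 neutrophil markers, most of it from S100a9, was 37617 untreated and 36301 with IL-4. Among them Ngp and Camp were 1.74-fold and 1.53-fold lower with IL-4, Mpo was 1.23-fold higher, and the median log2 difference was -0.20. The summed intensity of the 3 fibroblast markers was 69849 and 60939, most of it from Col1a1. Col1a1 and Dcn had log2 differences of -0.34 and -0.14, and Pdgfra went the other way, at 0.51. Of the mast cell and basophil markers, Cpa3 was detected without IL-4 only and was at least 3.51-fold lower with IL-4. With normexp its log2 difference went from -1.81 to -1.03, short of that bound. Mcpt8 was 1.67-fold lower, Tpsb2 had a log2 difference of -0.24, and Mcpt4 was not detected. Among the lymphocyte markers Cd3e was detected, and Cd3g, Cd79a and Ms4a1 were not. The part of these other transcripts in the values of the enzymes was not tested. In RNA of a whole culture, fewer cells of a type and less RNA per cell cannot be told apart.

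With IL-4, most of the pathway read within 1.5-fold of its untreated signal. Of the 37 enzymes, 0 were higher by 2-fold or more, and 0 were lower by 2-fold or more. For comparison, 3.06% of the 14073 genes detected on 1 or both arrays were higher by 2-fold or more, and 3.35% were lower by 2-fold or more. At 1.5-fold, Acadm was the 1 enzyme that was higher and Acox3 the 1 that was lower, each 2.70% of the members. Of the 14073 genes, bounds included, 6.36% passed 1.5-fold upward and 8.95% downward. Of the 12744 genes measured on both arrays, as all the enzymes were, 5.03% passed it upward and 5.27% downward. In either direction, 5.41% of the enzymes passed 1.5-fold, and 10.3% of these 12744 genes. The share of enzymes past 1.5-fold was thus not above that of all genes. These counts depend on the scaling. With each array scaled to its median, or not scaled, or scaled to the spike-in controls, or with the median over its probes, Acox3 fell short of 1.5-fold, and with median or spike-in scaling Acadm passed 2-fold.

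The median log2 difference of the 37 enzymes was -0.060, with the middle 50% between -0.16 and 0.12. Over all genes on both arrays the median was -0.014, with the middle 50% between -0.19 and 0.15. Of the enzymes 17 lay above 0 and 20 below, each by its brightest probe. Differences within 0.5 on the log2 scale were found for 34 enzymes, or 91.9%, and for 86.5% of all genes. Set against the spot error, 4 enzymes differed by less than 1 SD and 20 by more than 2 SD, 11 of them higher and 9 lower with IL-4. Set against the wider error of the software, 25 of the 37 lay within 1 error and 3 lay beyond 2, namely Acadm, Acox3 and Acsl3. The position of the whole group around 0 depends on how the arrays are scaled, and its median moved to 0.15 with median scaling, 0.040 without scaling and 0.26 with spike-in scaling. All genes moved with it.

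**Figure D1:**
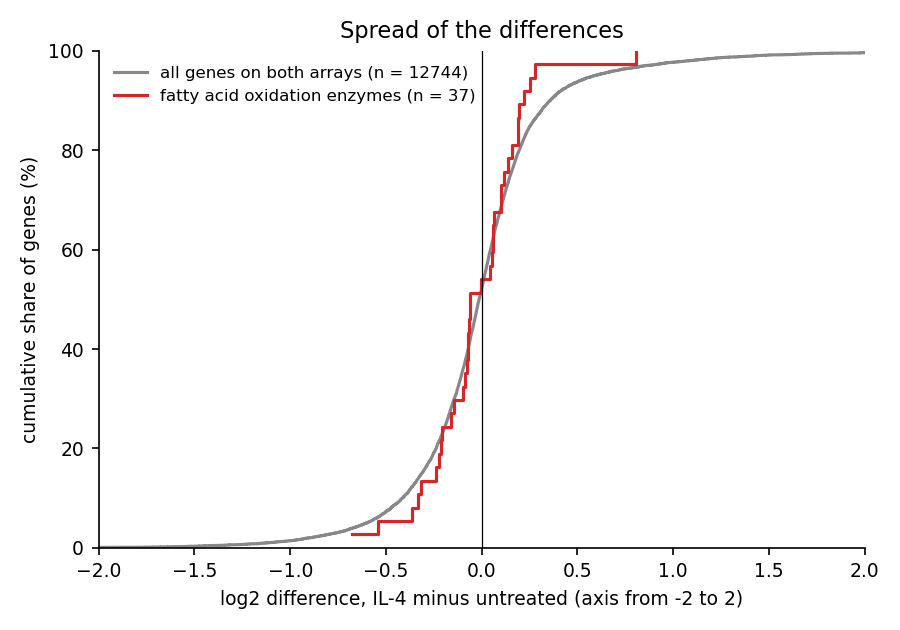
Cumulative share of genes, in percent, against the log2 difference in scaled signal between IL-4-treated and untreated BMDMs, for the 37 enzymes of fatty acid oxidation (red steps) and for the 12744 genes detected on both arrays (grey). The curves cross near 0, with medians of -0.060 and -0.014, and the enzymes end at -0.68 and 0.80.

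The acyl-CoA dehydrogenases take the initial oxidative step of each turn and pass their electrons to the electron transfer flavoprotein. Acadm, the dehydrogenase of medium-chain acyl-CoA, read 5356 in untreated BMDMs and 10016 with IL-4. This is a log2 difference of 0.80, or 1.75-fold higher, with a spot error of 0.048 and a software error of 0.20. It was the highest of the 37 enzymes, and the next, Acat1, stood at 0.28. Of the 12744 genes measured on both arrays, 427 had a difference at least as high. Probes of similar signal had a median of 0.051.

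Acadvl, the very long-chain dehydrogenase of the inner mitochondrial membrane, read 8803 untreated and 10130 with IL-4, a log2 difference of 0.10 (spot error 0.051). Acad11, which acts on longer chains, read 1454 untreated and 1210 with IL-4 and was the lowest of the 9 dehydrogenases, at -0.36 (spot error 0.057). Acadl and Acads, the long-chain and short-chain dehydrogenases, had log2 differences of -0.14 and -0.076. Acad9, which also serves in the assembly of respiratory complex I, had 0.19, and Acad10 had -0.24. Acadsb and Acad8 oxidise branched acyl-CoA from isoleucine and valine, and their differences of -0.0022 and 0.063 were within 1 spot error. The median of the dehydrogenases other than Acadm was -0.039, which placed Acadm 0.84 above it. None of the other dehydrogenases, which do the same chemistry on chains of other lengths or shapes, reached 1.5-fold.

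The window around the start site of Acadm is shown because this gene had the largest increase in the pathway. It spans 250 bases before to 50 after the annotated start, at chr3:153944594-153944893 on the minus strand of GRCm38.p6, from RefSeq, written from 5′ to 3′ along the gene. Capitals mark the reverse complement of the estrogen-related receptor half-site AAGGTCA, whose match begins 249 bases before the start site. This motif was found on either strand of 4.72% of the 32851 windows of the same length, and in 1 of the 30 enzymes with a window.
Acadm: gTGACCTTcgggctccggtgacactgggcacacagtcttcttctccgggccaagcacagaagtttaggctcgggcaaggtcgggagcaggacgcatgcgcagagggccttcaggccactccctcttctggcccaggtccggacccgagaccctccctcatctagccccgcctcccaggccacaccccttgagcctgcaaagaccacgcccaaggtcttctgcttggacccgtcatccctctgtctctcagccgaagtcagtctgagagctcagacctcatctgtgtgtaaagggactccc

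Peroxisomal oxidation held the enzyme with the largest decrease. Acox3, an acyl-CoA oxidase that starts the peroxisomal spiral on branched chains, read 5565 untreated and 3726 with IL-4. Its log2 difference was -0.68, or 1.60-fold lower, with a spot error of 0.050 and a software error of 0.20. A dimmer probe for Acox3 read 861 untreated and 693 with IL-4, a difference of -0.41, so both probes were lower with IL-4 and the dimmer one fell short of 1.5-fold. Over all genes on both arrays 502 were at least as low as the brighter probe. Between Acadm and Acox3 the log2 differences were 1.48 apart, a gap that no constant scaling of the arrays can change.

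The remaining peroxisomal enzymes moved less. Acaa1a, the peroxisomal thiolase, was the highest of the 5, with 20635 untreated and 24630 with IL-4, a log2 difference of 0.16 (spot error 0.059) that came down to 0.050 with quantile normalization. Its close paralog Acaa1b was not tested for sharing signal with this probe. Ehhadh, which carries hydratase and dehydrogenase activity in 1 protein, was dim, at 96.0 untreated and 82.5 with IL-4, and its difference of -0.32 had a spot error of 0.17. Hsd17b4, the other bifunctional enzyme of peroxisomes, had a difference of -0.16, and Decr2, the peroxisomal dienoyl-CoA reductase, -0.21. With 4 of 5 below 0 the median of the peroxisomal enzymes was -0.21.

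The window of Acox3, the enzyme with the largest decrease, lies at chr5:35582784-35583083 on the plus strand of GRCm38.p6 (RefSeq, 5′ to 3′). None of the 4 motifs searched matched in it, so it carries no capitals.
Acox3: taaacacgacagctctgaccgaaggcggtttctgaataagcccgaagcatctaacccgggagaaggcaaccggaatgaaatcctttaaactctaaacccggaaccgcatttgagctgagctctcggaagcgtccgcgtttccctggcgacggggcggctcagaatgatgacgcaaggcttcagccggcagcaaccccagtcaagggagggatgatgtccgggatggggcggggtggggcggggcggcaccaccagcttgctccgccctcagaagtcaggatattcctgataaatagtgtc

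**Figure D2:**
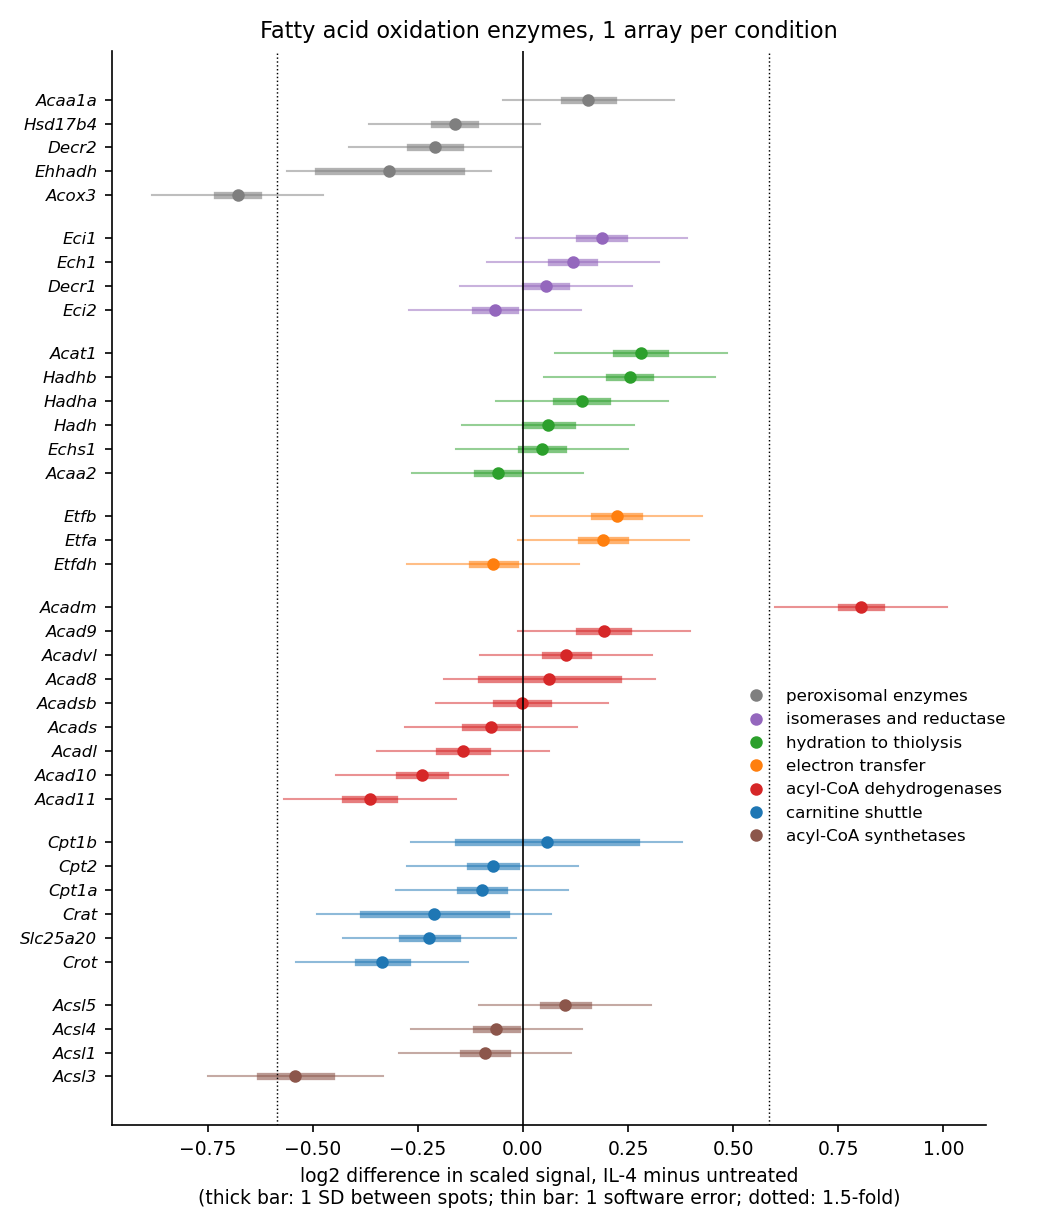
Log2 difference in scaled signal, IL-4 minus untreated, for each of the 37 enzymes on 1 array per condition, grouped by role. Thick bars are 1 SD between spots, thin bars 1 error as estimated by the scanner software, and the dotted lines mark 1.5-fold; Acadm, at 0.80, and Acox3, at -0.68, are the points outside them.

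Fatty acids enter the pathway through the long-chain acyl-CoA synthetases. Acsl3, a synthetase of the endoplasmic reticulum and lipid droplets, read 322 untreated and 237 with IL-4, a log2 difference of -0.54 (spot error 0.084), or 1.46-fold lower. It was the third enzyme to differ by more than 2 software errors, and it passed 1.5-fold when the 75th percentile was taken over bright probes alone, detected on both arrays, at -0.60. Probes of similar signal had a median of -0.059. Acsl5, found in mitochondria and the endoplasmic reticulum, was the highest of the 4, with 3013 untreated and 3462 with IL-4, a difference of 0.10 (spot error 0.053). Acsl1, the main synthetase of oxidative tissues, read 2776 untreated and 2795 with IL-4, a difference of -0.090, and Acsl4, which prefers arachidonic acid, had -0.063. A dimmer probe for Acsl1 read 328 untreated and 255 with IL-4, and its difference of -0.46 was larger than that of the brighter probe by several times the spot error of 0.082.

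The carnitine shuttle turns on Cpt1a, the carnitine palmitoyltransferase of the outer membrane and the rate-controlling step of long-chain oxidation. Its brightest probe was printed in 10 spots and read 3898 untreated and 3905 with IL-4. After scaling the log2 difference was -0.097, with single spots from -0.13 to -0.037 and an SD of 0.027 over the 10 spots, all of which lay below 0. The unscaled signal of Cpt1a was thus almost the same on both arrays, and the sign of its difference depends on the setting, with values from -0.31 to 0.22. A dimmer probe for Cpt1a read 379 untreated and 281 with IL-4, a difference of -0.53 (spot error 0.077), so the probes of this gene did not give the same value.

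Cpt1b, the muscle form of the same enzyme, was near the floor of both arrays. Its brightest probe read 46.4 untreated and 51.7 with IL-4, a log2 difference of 0.057 with a spot error of 0.21. The other probe for Cpt1b read 76.9 untreated and 22.0 with IL-4, where it was not well above background, which bounds it at least 2.95-fold lower with IL-4. The probes for Cpt1b thus gave opposite directions, and no direction is stated for the gene.

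Crot, which moves acyl groups of medium length out of peroxisomes onto carnitine, was the lowest of the shuttle, with 1030 untreated and 876 with IL-4, a log2 difference of -0.33 (spot error 0.059). Slc25a20, the carrier that exchanges acylcarnitine for carnitine across the inner membrane, had -0.22. Cpt2, which returns the acyl group to coenzyme A inside, had -0.072, and -0.29 at a dimmer probe. Crat, the acetyltransferase that buffers acetyl-CoA, had -0.21 at a low signal with a spot error of 0.17. The median of these 6 enzymes was -0.15, with 5 below 0. The 1 above 0 was Cpt1b, counted by its brightest probe although no direction is stated for it. The shuttle as a group sat above 0 only with median and spike-in scaling.

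**Figure D3:**
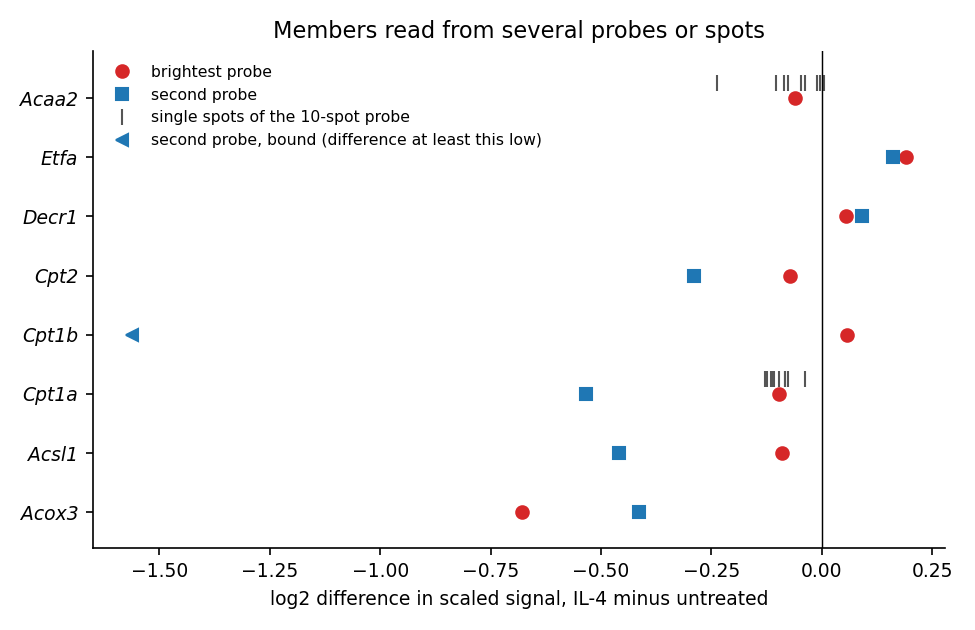
Log2 difference, IL-4 minus untreated, at each probe of the 7 enzymes read by more than 1 probe, and at the single spots of the Cpt1a and Acaa2 probes printed in 10 spots. The dimmer probe lay below the brightest (red) in 5 of the 7 enzymes and above it in 2, and the arrowhead for Cpt1b marks a bound at -1.56.

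Of the enzymes of electron transfer 2 of 3 lay above 0, and of the mitochondrial spiral 5 of 6, by small amounts. Etfb, the β subunit of the electron transfer flavoprotein, read 16469 untreated and 20592 with IL-4, a log2 difference of 0.22 (spot error 0.052). Etfa, the α subunit, had 0.19, and 0.16 at its dimmer probe. Etfdh, the membrane dehydrogenase that hands these electrons to ubiquinone, read 2962 untreated and 3022 with IL-4, a difference of -0.071 (spot error 0.052). Probes of similar signal to Etfb and Etfa had medians of 0.068 and 0.043, and with quantile normalization their differences came down to 0.12 and 0.11. Both subunits were thus higher by several spot errors as reported and by about 1 software error.

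Within the spiral, Acat1, the thiolase that handles acetoacetyl-CoA and also serves in ketone metabolism, was the highest of 6, with 1440 untreated and 1873 with IL-4, a log2 difference of 0.28 (spot error 0.058), though Hadhb lay above it with normexp, at 0.31 against 0.26. Acaa2, the thiolase of medium and long chains, was the lowest. It was printed in 10 spots and read 8221 untreated and 8450 with IL-4, a difference of -0.060, with single spots from -0.24 to 0.0040, an SD of 0.073 and 8 of 10 spots below 0. Echs1, the short-chain hydratase, and Hadh, the dehydrogenase of hydroxyacyl-CoA, had 0.045 and 0.060. Of the 6 enzymes 5 lay above 0, and their median was 0.10.

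Hadha and Hadhb encode the α and β subunits of the mitochondrial trifunctional protein, which carries hydratase, dehydrogenase and thiolase activity for long chains. Hadha read 818 untreated and 966 with IL-4, a log2 difference of 0.14 (spot error 0.060). Hadhb read 5825 untreated and 7441 with IL-4, a difference of 0.25 (spot error 0.049). Both were higher, Hadhb by more than 1 software error and Hadha by less. The genes lie head to head, with start sites 273 bases apart, and their windows share 228 bases. The window of Hadhb, at chr5:30155003-30155302 on the plus strand of GRCm38.p6 (RefSeq, 5′ to 3′), is shown for this shared stretch. Capitals mark a match to TTCNNNGAA, a palindrome bound by STAT factors, which begins 125 bases before the Hadhb start site and lies in the window of Hadha as well.
Hadhb: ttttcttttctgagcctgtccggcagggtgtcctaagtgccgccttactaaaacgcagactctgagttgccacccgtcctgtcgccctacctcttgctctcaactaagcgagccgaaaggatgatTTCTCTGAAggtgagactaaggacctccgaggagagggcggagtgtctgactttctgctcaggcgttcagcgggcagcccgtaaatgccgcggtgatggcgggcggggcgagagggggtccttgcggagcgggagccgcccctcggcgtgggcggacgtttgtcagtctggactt

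The auxiliary enzymes prepare unsaturated chains for the spiral. Eci1, a mitochondrial enoyl-CoA isomerase, was the highest of the 4, with 2538 untreated and 3097 with IL-4, a log2 difference of 0.19 (spot error 0.053). With normexp Eci1 came down to 0.035, below Ech1 at 0.17 and Decr1 at 0.099. Eci2, an isomerase of peroxisomes and mitochondria, read 7006 untreated and 7166 with IL-4, a difference of -0.067 (spot error 0.048). Ech1, the dienoyl-CoA isomerase, had 0.12, and Decr1, the mitochondrial dienoyl-CoA reductase, had 0.055 and 0.091 at its probes. The median was 0.087.

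By role, the medians ran from -0.21 for the peroxisomal enzymes and -0.15 for the carnitine shuttle through -0.076 for the synthetases and -0.0022 for the dehydrogenases to 0.087 for the auxiliary enzymes, 0.10 for the mitochondrial spiral and 0.19 for electron transfer. The groups hold 3 to 9 genes and these medians carry no test. Over 13 settings, the one reported included, the medians of electron transfer, the spiral and the auxiliary enzymes stayed above 0, from 0.11, 0.045 and 0.032 upward. Those of the peroxisomal enzymes and the shuttle were below 0 in 11 settings and above it with median and spike-in scaling. Not all settings are separate checks. The processed values, outlier spots kept and the other filters on dim probes gave almost the same medians as reported. The gap between the mitochondrial spiral and the peroxisomal enzymes, 0.31 as reported, cannot change under a constant scaling, and it lay between 0.24 and 0.30 with quantile normalization, cyclic loess and normexp.

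**Figure D4:**
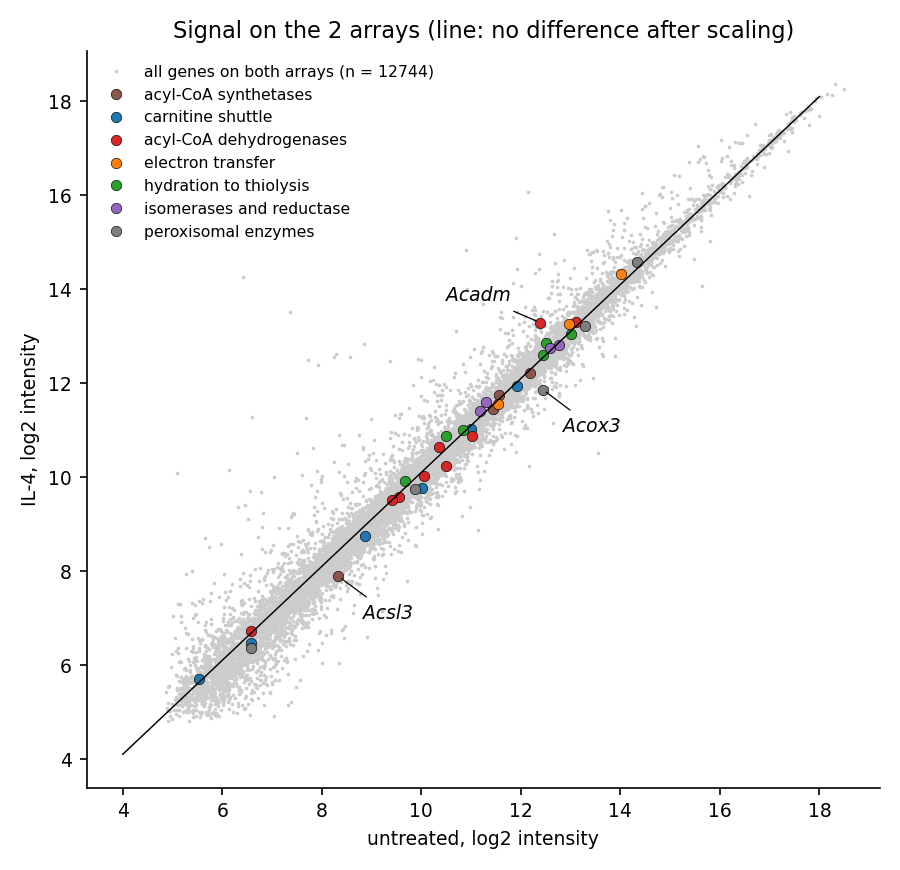
Log2 intensity on the IL-4 array against log2 intensity on the untreated array for the 12744 genes detected on both (grey) and the 37 enzymes, coloured by role. The line marks no difference after scaling; Acadm lies above it by 0.80, Acox3 and Acsl3 lie below it by -0.68 and -0.54, and the other enzymes follow it over the whole range of signal.

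The promoter windows were searched for 4 motifs on both strands. RefSeq windows were at hand for 30 of the 37 enzymes, and Cpt1b, Crat, Acad9, Acaa2, Acat1, Decr1 and Hsd17b4 had none. TTCNNNNGAA, the spacing that STAT6 prefers, matched in 0 of the 30 and in 6.95% of all windows. TTCNNNGAA, with the spacing of other STAT factors, matched in Cpt2, Hadha and Hadhb, or 10% of the enzymes with a window, and in 8.30% of all. The putative STAT6 site that the study names in the human GDF15 promoter also has this spacing. The matches in Hadha and Hadhb are 1 site in their shared stretch, counted for both genes. The direct repeat of PPAR:RXR, allowing 2 mismatches, matched in Echs1, Etfa and Slc25a20, again 10%, and in 3.86% of all. The log2 differences of these genes ran from -0.22 for Slc25a20 to 0.25 for Hadhb, and the only enzyme past 1.5-fold with a match was Acadm. The windows of the enzymes had a median GC content of 60.7%, against 52.7% for all windows. A match is a run of letters and no evidence of binding, and these windows leave out sites farther away.

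The regulators, carriers and further enzymes around the pathway were read as a list of 58 genes, of which 52 were detected on both arrays, 2, Ppargc1b and Acacb, on 1 array and 4 on neither. Their median log2 difference was -0.057, close to that of the enzymes. At least 1.5-fold higher were 4 and at least 1.5-fold lower 3, beside 6.36% and 8.95% of all genes, and 1 and 2 passed 2-fold.

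Pparg, the nuclear receptor PPARγ that IL-4 induces in macrophages, read 3669 untreated and 8349 with IL-4, or 2.12-fold higher, and was higher in every setting tried. Its coactivator gene Ppargc1b was well above background with IL-4 only, at least 1.84-fold higher, though its log2 difference went from 0.88 to 0.36 with normexp, short of that bound and of 1.5-fold, while Ppargc1a, the related coactivator of muscle and liver, was well above background on neither array. Ppara, the receptor best known for driving this pathway in liver, read 195 untreated and 209 with IL-4, a log2 difference of 0.00026, and -0.61 and -0.15 at its other probes. Ppard, the third receptor of the family, was 1.21-fold lower, though its sign turned with spike-in scaling. Esrra, the estrogen-related receptor α, read 5666 untreated and 7975 with IL-4, 1.31-fold higher. By their brightest probes, the receptors named here thus ranged from 1.21-fold lower to 2.12-fold higher, and the Ppara probe at -0.61 lay below that range.

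Among the carriers, Lpl, the lipoprotein lipase that frees fatty acids for uptake, read 18495 untreated and 33538 with IL-4, 1.69-fold higher, with 0.58 on the log2 scale at its other probe. Slc22a4, a cation transporter of the carnitine transporter family, read 430 untreated and 210 with IL-4, 2.19-fold lower, and fell short of 2-fold with median scaling, spike-in scaling and normexp. Among the further enzymes, Acot1, a cytosolic thioesterase that undoes acyl-CoA activation, read 597 untreated and 227 with IL-4, 2.82-fold lower, and whether its close paralog Acot2 shares this probe was not tested. Acsbg1, a very long-chain synthetase, was 1.55-fold lower, and fell short of 1.5-fold with normexp and most other scalings. Abcd2, a peroxisomal transporter of very long-chain acyl-CoA, was 1.81-fold higher at a low signal of 42.4 and 82.0, and its log2 difference went from 0.85 to 0.21 with normexp, short of 1.5-fold. All these genes kept their sign in every setting tried.

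Acadm was the highest and Acox3 the lowest of the 37 enzymes in all 13 settings. Only quantile normalization, cyclic loess, normexp and the median over probes could have changed that order, since the other settings shift all enzymes alike or leave them as they are. Acadm ranged from 0.73 to 1.12 and Acox3 from -0.74 to -0.36. Of the enzymes, 13 lay above 0 in every setting that gives a value for single genes. Below 0 in each of these were 4, namely Acsl3, Crot, Acad11 and Acox3, and the other 20 changed sign with the setting.

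**Figure D5:**
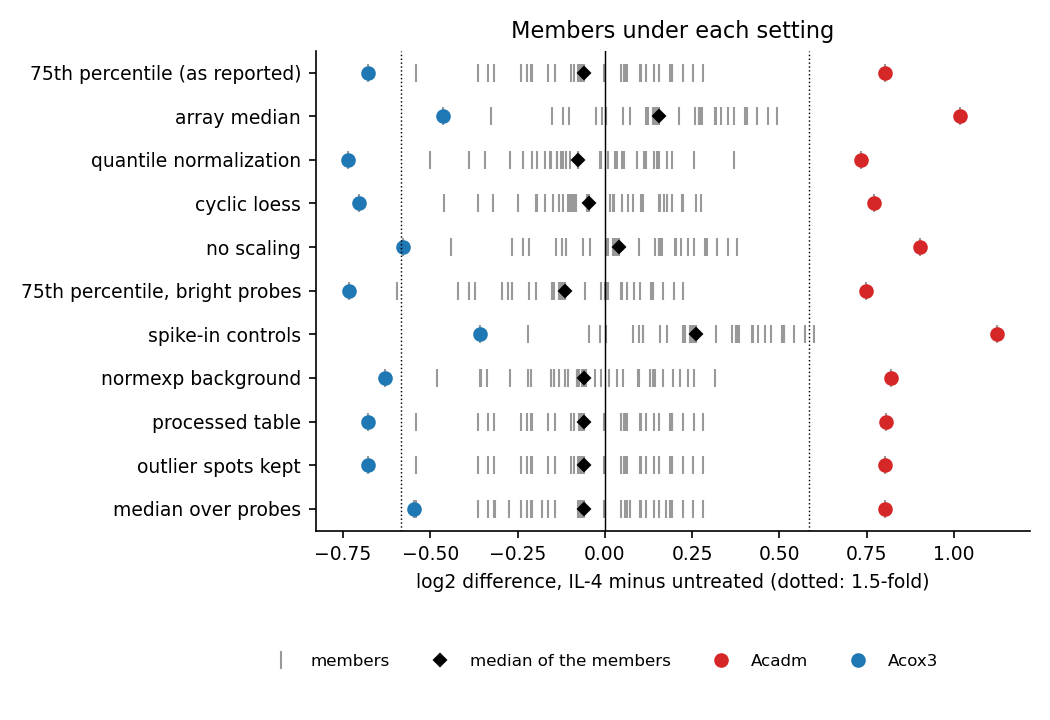
Log2 differences, IL-4 minus untreated, of the 37 enzymes (ticks) under each setting that gives a value for single genes, with their median (black), Acadm (red) and Acox3 (blue). The group slides as a whole with the scaling, from a median of -0.11 to 0.26, while Acadm stays at the right end and Acox3 at the left.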

How the data were processed

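Per the file headers and the study's methods, Cy3-labelled cRNA was hybridised to Agilent 8 x 60K mouse arrays, 1 per condition, on the same slide and in the same scan, and read with Feature Extraction 10.10.1.1. The authors deposited this output, in which gene spots carry an intensity with background and within-array trends removed but no scaling across arrays, together with processed log2 values, 1 per probe and array, whose tool and settings are not given in the sources used here. The column medians of these processed values were 0.16 untreated and 0.016 IL-4, their centring is unknown, and their log2 differences, after an offset of -0.099, lay within 0.01 of the unscaled scanner differences for 39422 of 39424 probes and for the brightest probe of each of the 37 enzymes. Groups were taken from the sample labels.

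Spots that are controls or carry an outlier flag were dropped, leaving 39424 of 39429 probes. Replicate spots were averaged on the log2 scale, then each array was scaled by subtracting its 75th percentile. The headers give mm9 for the array design, and the RefSeq accessions of its probes were matched to a GRCm38.p6 gene table, which named 27229 probes by a single symbol. Each gene is represented by its brightest probe. For a probe detected on 1 array only, a bound was computed against the lowest detected signal of the other array, or against the probe's measured signal there if that was higher. The spot error came from 259 probes printed in 10 spots, within 1 log2 unit of signal, and probes of similar signal are those within 0.25. No test was run with 1 array per condition, whose number limits the precision. The counting was tested on simulated data.

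The enzymes, gene lists and motifs were chosen with earlier results of these data known, and the comparison with probes of similar signal was added after the values were seen. Given in full are enzymes at least 1.5-fold apart, at a bound or near background, Cpt1a, Acadm, Acadvl and the highest and lowest of each role, and of the surrounding genes those at least 1.5-fold apart and the PPAR and PGC-1 genes; some items of these lists are not reported here. Others were named with their values seen. Alternatives were median, quantile, cyclic loess, spike-in and no scaling, the 75th percentile over bright probes, normexp with an offset of 50 in limma 3.58.1, the authors' processed values, outlier spots kept, the median over probes and other filters on dim probes. Python 3.11.15, numpy 2.4.6, pandas 2.3.3 and R 4.3.3 were used.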

Additional observations from a re-analysis of the deposited data

How the results depend on the processing

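No paired analysis was possible because untreated and IL-4 cells have 1 array each, and for the same reason the slide could not be fitted as a block and no replicate could be left out. Normexp was run on the median pixel intensity, as the files used here hold no mean intensity. Values are called moved where the change exceeds the spot error. The median over all genes detected on both arrays went from -0.014 to 0.20 (median scaling), 0.086 (no scaling) and 0.31 (spike-in probes), a shift of all genes by construction. The median of the enzymes, -0.060 as reported, moved with it to 0.15, 0.040 and 0.26, and to -0.11 where the 75th percentile was taken over bright probes, those detected on both arrays. Enzymes at least 2-fold higher, 0 as reported, numbered 1 with median and 1 with spike-in scaling. Those at least 1.5-fold higher, 1 as reported, numbered 2 with spike-in scaling, where Acat1 reached 0.60. Those at least 1.5-fold lower, 1 as reported, numbered 0 with median, spike-in and no scaling and with the median over all probes of a gene, where the dimmer Acox3 probe enters, and 2 with the 75th percentile over bright probes. Enzymes at least 2-fold lower numbered 0 in each of the 13 settings. Of 370 values of single enzymes under 10 alternatives, 219 moved by less than the spot error and 151 by more. Many of the 219 could not move. No spot of these enzymes was flagged, and the processed values give almost the reported differences. The median over probes leaves an enzyme with 1 usable probe as it is. Acadm and Acox3, the enzymes called at 1.5-fold, kept their direction, while 20 enzymes changed sign with the setting. Relative to the median of the enzymes, which a constant scaling or a filter cannot change, Acadm lay between 0.81 and 0.88 with quantile normalization, cyclic loess, normexp and the median over probes, and Acox3 between -0.66 and -0.49. For dim enzymes such as Cpt1b, Crat and Ehhadh, signal over background limits the precision.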
